A study of Mus musculus with 8 samples.

Results

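Translation initiation factors are the proteins that bring an mRNA, the initiator tRNA and the small ribosomal subunit together at a start codon. The 40 genes described here encode the mouse initiation factors eIF1, eIF2, eIF2B, eIF4, eIF5, eIF5A, eIF5B and eIF6, their best known kinases and binding proteins, and the eIF3 subunits that lie outside its octamer core. They were taken by symbol from a list and made up 40 of the 32285 genes in the count tables. They were chosen by name and not by a cut on their values, although earlier results of these data were known when the list was set. They were measured by single-cell RNA sequencing of spleen cells from mice in which Eif3e, a subunit of the eIF3 octamer, was floxed, so the question was whether the rest of the initiation machinery differed at the RNA level when this subunit was targeted.

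The cKO mice were Eif3e fl/fl Cγ1Cre Rosa26-YFP LSL and the controls were Cγ1Cre Rosa26-YFP LSL, on a C57BL/6J background and 2 months old. Cγ1Cre is induced together with transcription of the immunoglobulin γ1 constant region, which happens in activated B cells, and Cre then also switches on the YFP reporter, so YFP marks cells with a history of Cre in both genotypes. From each genotype total live cells and sorted YFP+ cells were sequenced in 2 batches, which gave 8 libraries in 4 groups of 2. Each library was a pool of several mice, and the sample labels name the spleen while the protocol text also names lymph nodes.

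The tables held 83967 cell barcodes and 691658280 unique molecular identifiers (UMIs, each standing for 1 captured RNA molecule), with 71894780 to 105224903 UMIs per library and medians of 5250 to 6810.5 UMIs per cell. B-lineage cells made up 93.2% and 99.0% of the cKO YFP+ libraries and 93.7% and 98.8% of the control YFP+ libraries. Pairs of libraries shared 51 to 102 barcodes, 0.55% to 0.974% of the smaller library. Cell classes were rebuilt here from marker genes and each name is to be read as "like". Pre-GCB-like cells have the markers of activated B cells and are named from Myc, Ccnd2, Batf, Ccl22, Ebi3, Irf4, Egr3 and Cd69. Whether they come before the germinal centre was not tested. GCB-like cells are named from markers of germinal centre B cells. For each class the UMIs were summed per library, and levels are given as CPM, the UMIs of a gene per 1000000 UMIs of that sum. Libraries of 1 genotype and sort differed by far more than counting noise. Since each replicate is a pool of mice, the main p-values refer to the spread between pools, estimated with information shared across genes. Fits with the batch or the library as a term leave so few residual degrees of freedom that their p-values rest mostly on that shared information.

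Initiation begins with eIF2, which carries the initiator tRNA as a complex with GTP and is recharged by the exchange factor eIF2B. Kinases that phosphorylate the α subunit of eIF2 slow this recharging under stress: Eif2ak1 (HRI) responds to heme shortage, Eif2ak2 (PKR) to double-stranded RNA, Eif2ak3 (PERK) to unfolded proteins in the endoplasmic reticulum and Eif2ak4 (GCN2) to amino acid shortage. The cap of the mRNA is bound by eIF4E, whose contact with the scaffold eIF4G is blocked by the eIF4E-binding proteins, and the helicase eIF4A unwinds the leader so that eIF1, eIF1A and eIF5 can help the scanning subunit find the start codon. In lymphocytes the machinery is known to be raised when a resting cell is activated and starts to grow.

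The promoters of 4 genes that differed between genotypes in pre-GCB-like cells are shown because they are the ones among the 6 such genes that have an entry in the RefSeq promoter table used here. The bases lie upstream of the start that RefSeq gives and outside the exons of the gene, in the GRCm38.p6 build, and each is written 5′ to 3′ on the strand of its gene. Eif2ak3 is at chr6:70844265-70844514 on the plus strand, Eif5 at chr12:111537851-111538015 on the plus strand, Eif1b at chr9:120492356-120492490 on the plus strand and Eif2s2 at chr2:154892936-154893156 on the minus strand. For Eif1b the GENCODE gene starts further upstream, at 120492232, so its stretch lies within that gene, outside exons. Capitals mark matches on either strand to the CCAAT box (CCAAT) and the GC box (GGGCGG).
Eif2ak3: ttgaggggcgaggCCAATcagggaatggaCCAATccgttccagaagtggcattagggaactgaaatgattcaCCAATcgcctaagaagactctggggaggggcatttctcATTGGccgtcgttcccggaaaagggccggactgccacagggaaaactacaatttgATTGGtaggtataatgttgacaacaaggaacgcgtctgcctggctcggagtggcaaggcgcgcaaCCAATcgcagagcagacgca
Eif5: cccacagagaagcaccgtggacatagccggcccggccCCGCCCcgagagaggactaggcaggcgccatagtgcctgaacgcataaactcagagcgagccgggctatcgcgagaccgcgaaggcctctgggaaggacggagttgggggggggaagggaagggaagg
Eif1b: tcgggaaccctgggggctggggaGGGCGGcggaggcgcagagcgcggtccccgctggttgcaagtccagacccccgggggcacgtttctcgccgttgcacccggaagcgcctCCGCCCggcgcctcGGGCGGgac
Eif2s2: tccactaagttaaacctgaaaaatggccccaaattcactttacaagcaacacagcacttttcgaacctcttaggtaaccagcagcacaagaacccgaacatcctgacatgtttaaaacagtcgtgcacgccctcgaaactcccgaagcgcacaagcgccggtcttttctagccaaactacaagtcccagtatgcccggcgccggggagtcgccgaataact

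The Eif2ak3 stretch holds 6 matches to CCAAT, the Eif1b stretch 3 matches to the GC box and the Eif5 stretch 1, while the Eif2s2 stretch holds none of the motifs searched. Of the 40 genes 33 had an entry, some with several promoters, and a gene was counted when any of its promoters held a match in the 250 bases upstream of the start. A CCAAT match was found for 9 of the 33 members and for 37.5% of all 27025 genes with an entry (33.9% of all 32851 promoters). A GC box match was found for 24 members and 35.4% of all genes (32.7% of promoters). The E-box CACGTG, the core bound by Myc, was found for 6 members and 6.86% of all genes (6.02% of promoters). The C/EBP-ATF element TGATGNAA was found for 0 members and 3.91% of all genes (3.45% of promoters), and the interferon-stimulated element for 1 member and 3.46% of all genes (2.98% of promoters). These are letter matches on both strands, and they do not show that a factor was bound.

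Eif3e itself, the targeted gene, was counted at a similar level in all libraries. The sums of all cells gave 235 and 279.9 CPM for cKO YFP+, 227 and 267 for control YFP+, 240.5 and 288 for cKO total, and 244 and 289 in control total libraries (batch 1 and batch 2, here and below). Within a batch the genotypes were closer to each other than the batches were. In pre-GCB-like YFP+ cells Eif3e was at 156 and 159 CPM in cKO and 277 and 284 CPM in control, without overlap (log2 fold change −0.73, SE 0.185, edgeR adjusted p = 0.0403). This call was lost without cKO YFP+ replicate 1 (adjusted p = 0.206), cKO YFP+ replicate 2 (0.196) or control YFP+ replicate 2 (0.0812), and in the cluster of this class with fewer UMIs per cell taken alone (log2 fold change −0.04, adjusted p = 0.978). The counts come from 3′ ends, and where the floxed part lies relative to them was not read here, so the level does not test the deletion.

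In control YFP+ libraries, where the genotype plays no part, the 40 genes were described across 11 B-lineage classes. The classes were defined by clustering the same cells, although the 40 genes were kept out of it, so the levels are given without a test. The mean level was highest in pre-GCB-like cells for 17 genes and in GCB-like cells for 14, and lowest in plasma cell-like cells for 12, in MZB-like (marginal zone) cells for 8 and in interferon-response B-like cells for 8. Immunoglobulin genes took 38.1% and 34.1% of the UMIs in plasma cell-like sums and 1.22% to 2.61% in the other classes. As CPM is a share of all UMIs, other genes read lower in plasma cell-like cells, here and below. The part of this in the ranks was not tested. In the scanning group (genes named for eIF1, eIF1A, eIF5 and eIF5B), Eif1ad ranged from 7.06 ± 3.77 CPM in interferon-response B-like to 52.5 ± 4.91 CPM in pre-GCB-like cells (SD, n = 2, here and below). Eif5, which triggers GTP hydrolysis by eIF2 at the start codon, had the narrowest range of that group, from 182 ± 15.2 CPM in cycling B-like to 274 ± 25.9 CPM in GCB-like cells. Of the eIF2 genes, Eif2s1, the α subunit that the kinases phosphorylate, ranged from 68.5 ± 6.48 CPM in transitional B-like to 207 ± 10.7 CPM in pre-GCB-like cells. Eif2s2, the β subunit, ranged from 117 ± 21.0 CPM in interferon-response B-like to 264 ± 14.4 CPM in pre-GCB-like cells. The interferon-response B-like sums held only 85 and 52 cells, so low levels there, such as that of Eif1ad, rest on few UMIs.

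Of the kinases of eIF2α, Eif2ak2, an interferon-induced gene, ranged from 18.8 ± 0.57 CPM in plasma cell-like to 255 ± 12.7 CPM in interferon-response B-like cells, a ratio of 13.6 and the widest of all 40. Eif2ak1 had the narrowest range of the kinases, from 29.6 ± 0.183 CPM in plasma cell-like to 59.7 ± 13.9 CPM in T-bet+ B-like cells. Immunoglobulin genes took 38.1% and 34.1% of the UMIs in the plasma cell-like sums and 2.07% and 1.72% in the T-bet+ B-like sums. The part of this in the ranges was not tested. No kinase was highest in pre-GCB-like or GCB-like cells.

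Of the eIF2B subunits, Eif2b1 had the widest range of means, from 5.61 ± 4.49 to 32.9 ± 2.09 CPM, and Eif2b4 the narrowest, from 12.9 ± 5.82 to 25.03 ± 0.36 CPM. Both were lowest in interferon-response B-like and highest in pre-GCB-like cells. Their low ends rest on few UMIs, in sums of 85 and 52 cells, so these ranges are uncertain. Of the eIF3 subunits outside the octamer, Eif3g ranged from 83.9 ± 18.1 CPM in naive B-like to 163.5 ± 12.4 CPM in pre-GCB-like cells. Eif3j2, at 0.438 to 2.2 CPM, had few counts in all classes. Its highest mean, in interferon-response B-like cells, had an SD of 3.11 CPM.

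The helicase Eif4a1 ranged from 203 ± 44.6 CPM in naive B-like to 669 ± 82.3 CPM in pre-GCB-like cells. Eif4a3, which also serves in exon junction complexes, ranged from 55.9 ± 14.9 CPM in plasma cell-like to 123 ± 18.5 CPM in GCB-like cells. Of the cap group (eIF4E family and eIF4E-binding proteins), Eif4e3, an atypical eIF4E relative, was highest in transitional B-like cells at 21.5 ± 2.63 CPM and lowest in memory B-like cells at 4.33 ± 0.0549 CPM. The binding protein gene Eif4ebp2 ranged from 85.2 ± 58.3 CPM in interferon-response B-like cells, in sums of 85 and 52 cells, to 145 ± 7.72 CPM in GCB-like cells. Among the scaffolds, Eif4g3 ranged from 83.3 ± 17.5 CPM in plasma cell-like to 232 ± 70.5 CPM in transitional B-like cells. Eif4g2, which supports cap-independent initiation, ranged from 203 ± 8.94 CPM in MZB-like to 394 ± 15.3 CPM in GCB-like cells. The lowest means of Eif4a3 and Eif4g3 are from plasma cell-like sums, with 38.1% and 34.1% of UMIs from immunoglobulin genes. The part of this in their ranges was not tested. Eif5a, whose hypusinated protein relieves stalled ribosomes, rested at 228 ± 86.9 CPM in MZB-like cells and stood at 953 ± 200 CPM in pre-GCB-like cells. Eif6, which keeps the large ribosomal subunit from joining too early, ranged from 33.0 ± 0.146 CPM in MZB-like to 95.1 ± 9.79 CPM in GCB-like cells.

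**Figure D1:**
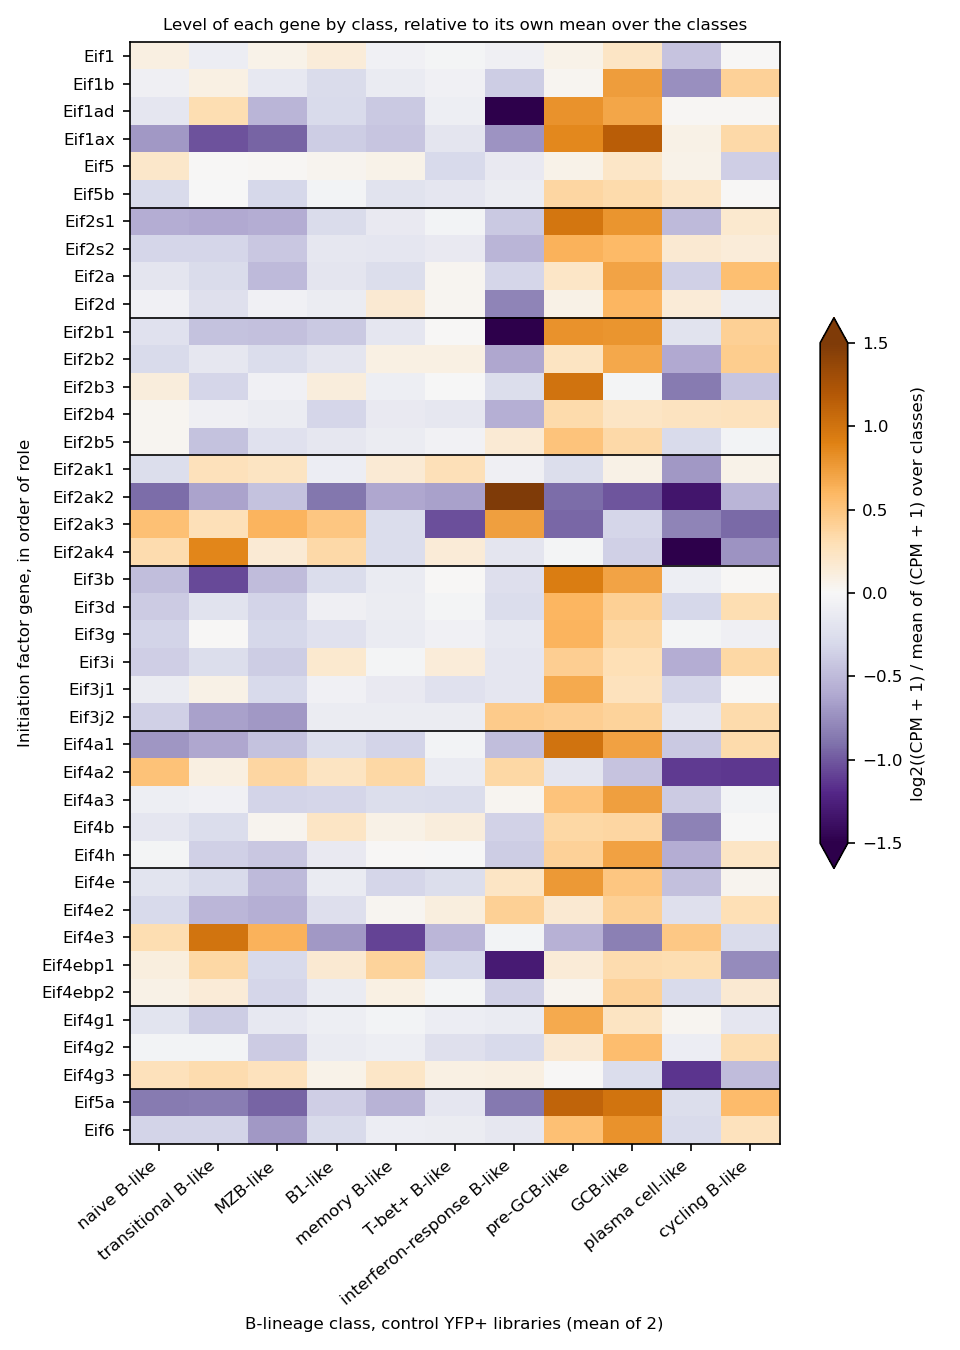
Level of each of the 40 genes (rows, grouped by role) in 11 B-lineage classes (columns) of the control YFP+ libraries, as log2 of the mean CPM + 1 of 2 libraries over the mean of that gene across classes (orange above, purple below). The pre-GCB-like and GCB-like columns are mostly orange, with 17 and 14 genes at their highest, and the row of Eif2ak2 is highest in interferon-response B-like cells.

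The paralogues Eif4a1 and Eif4a2, related helicases that act in the cap complex, were compared by the ratio of their UMIs. It was 0.792 to 0.934 in the naive B-like cells of the 8 libraries, 3.73 to 4.82 in pre-GCB-like cells and 4.2 to 5.77 in GCB-like cells. The ranges did not overlap between naive B-like and the activated classes, in either genotype. The ratio of Eif1 to Eif1b in pre-GCB-like cells was 8.29 and 9.23 in cKO YFP+ and 13.5 and 14.5 in control YFP+ libraries, and 13.2 to 16.2 in the total libraries. Eif3j1 and Eif3j2 are near-identical copies whose reads the counting could split, so both are uncertain. In pre-GCB-like cells of YFP+ libraries Eif3j2 was at 3.25 and 3.85 CPM in cKO and at 1.77 and 2.53 CPM in control, the latter on 7 UMIs in each library.

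The genotypes were then compared in YFP+ pre-GCB-like cells. Of the 40 genes 5 were higher in cKO and 1 was lower (edgeR quasi-likelihood F test, Benjamini-Hochberg over 12737 genes). Over all genes tested 10.6% were called, 4.93% higher and 5.62% lower, against 5 and 1 of the 40. Eif4ebp1 and Eif6 were the genes with the smallest p, and Eif2ak3 was the one that fell. The median log2 fold change of the 40 genes was 0.27 and 30 were above 0, against a median of −0.0056 and 49.6% above 0 over all genes. The median was 0.18 without cKO YFP+ replicate 2, 0.14 without control YFP+ replicate 1, 0.38 without cKO YFP+ replicate 1 and 0.45 without control YFP+ replicate 2. In YFP+ naive B-like cells 32 of the 40 genes were above 0, with a median of 0.19, against 52.0% of all genes. In YFP+ GCB-like cells 34 were above 0, with a median of 0.16, against 47.9% of all genes. It was 23 in YFP+ plasma cell-like, 28 in total naive B-like and 19 in total CD4 T-like cells. The 33 related genes described below had a median of 0.24 in YFP+ pre-GCB-like cells, with 29 above 0.

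Eif4ebp1 encodes 4E-BP1, the repressor that holds eIF4E away from eIF4G until mTORC1 phosphorylates it. It was at 78.8 and 78.6 CPM in cKO YFP+ and at 19.97 and 22.0 CPM in control YFP+ pre-GCB-like cells, and at 24.2 to 38.8 CPM in the total libraries. Both cKO YFP+ libraries stood above every other library (log2 fold change 2.01, SE 0.198, adjusted p = 0.0011). Eif6 was at 161 and 181 CPM in cKO YFP+ and at 86.2 and 71.5 CPM in control YFP+ libraries. The groups did not overlap (log2 fold change 1.22, SE 0.196, adjusted p = 0.00733).

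Of the scanning factors, Eif5 was at 476 and 598 CPM in cKO YFP+ and at 234 and 256 CPM in control YFP+ libraries (log2 fold change 1.24, SE 0.221, adjusted p = 0.0109). Eif1b, a second gene for eIF1, the gatekeeper of start codon choice, was at 158 and 181 CPM against 71.8 and 96.1 CPM (log2 fold change 1.11, SE 0.23, adjusted p = 0.019). For both genes each cKO YFP+ library was above each control YFP+ library and above each total library. Eif2s2 was at 413 and 487 CPM in cKO YFP+ and at 254 and 274 CPM in control YFP+ libraries, again without overlap (log2 fold change 0.87, SE 0.208, adjusted p = 0.033). Its call was lost without cKO YFP+ replicate 2 (adjusted p = 0.246), without control YFP+ replicate 1 (adjusted p = 0.0569) and without doublets (adjusted p = 0.0579).

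Eif2ak3, which encodes the kinase PERK, was at 37.6 and 23.0 CPM in cKO YFP+ and at 134 and 70.8 CPM in control YFP+ pre-GCB-like cells. Batch 1 was higher than batch 2 in both genotypes, and the cKO value was lower than the control value in either batch (log2 fold change −1.66, SE 0.303, adjusted p = 0.0117). None of the other kinases was called, with log2 fold changes of −0.30 for Eif2ak1, −0.02 for Eif2ak2 and −0.28 for Eif2ak4.

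**Figure D2:**
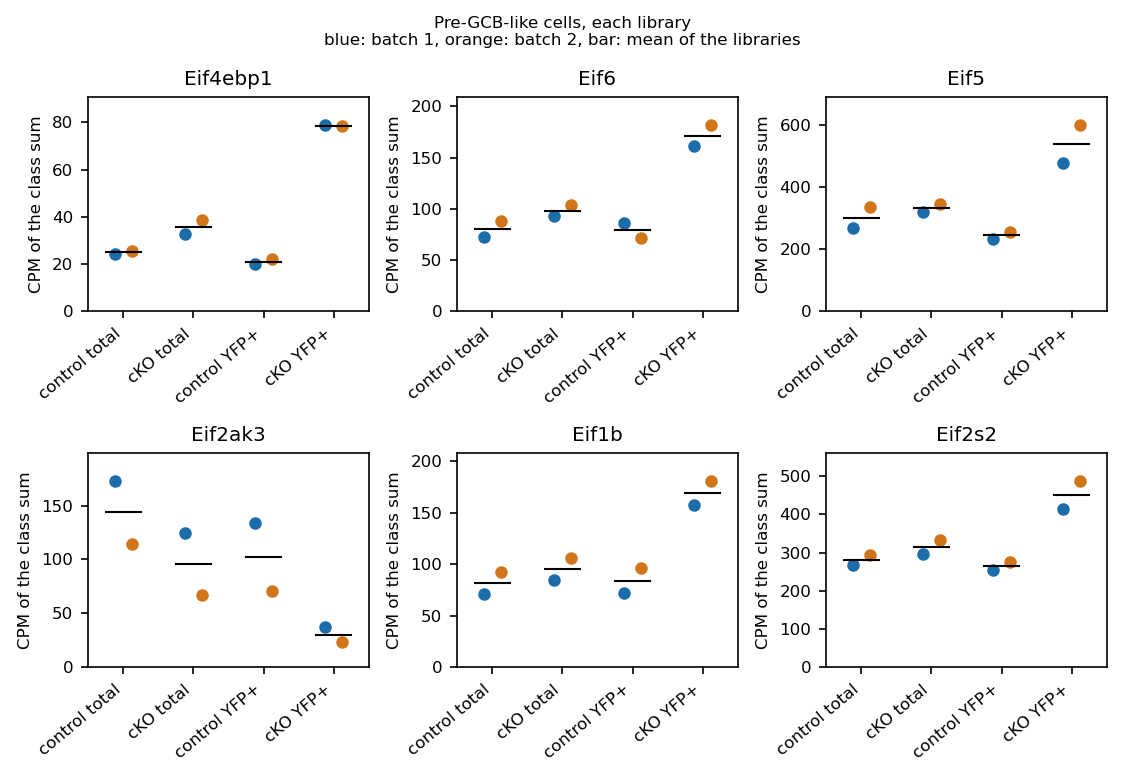
Level in CPM (vertical axes, from 0) of the 6 genes called in pre-GCB-like cells, in each library of the 4 groups, with batch 1 in blue, batch 2 in orange and the mean as a bar. For Eif4ebp1 the cKO YFP+ libraries sit at 78.8 and 78.6 CPM and all others at or below 38.8 CPM, and for Eif2ak3 the cKO YFP+ libraries are the lowest.

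By role, 2 of 6 genes of the scanning group and 1 of 4 of the group of eIF2 and alternative initiator tRNA delivery were higher. So were 1 of 2 genes of the eIF5A and eIF6 group and 1 of 5 of the cap group (eIF4E family and eIF4E-binding proteins). In the cap group this was Eif4ebp1, an eIF4E-binding protein, and no eIF4E family gene was called. Of the 4 kinases 1 was lower. None of the 5 eIF2B subunits, 6 eIF3 subunits outside the octamer, 5 eIF4A helicase and cofactor genes and 3 scaffolds was called. With the batch number as a replicate block, 16 genes were higher and 2 lower, while the share of all genes called was 29.5%, with 15.0% higher and 14.5% lower. The genes added were Eif1, Eif1ax, Eif2s1, Eif3b, Eif3g, Eif3i, Eif3j1, Eif4a1, Eif4a2, Eif4g2 and Eif5a, all higher by 0.29 to 0.76 on the log2 scale, and Eif4g3, lower at −0.43. The eIF2B subunits had no call in that fit either. Of 33 related genes of the eIF3 octamer, of initiation partners and of elongation, Pabpc4 (a poly(A)-binding protein, 0.69, adjusted p = 0.0495) and Eef1b2 (an exchange factor of elongation, 0.79, adjusted p = 0.0495) were higher and Eif3e was lower, and with the replicate block 11 were higher and 2 lower.

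The pre-GCB-like class consisted of 2 clusters of unlike depth, and its make-up differed between genotypes. The cluster with more UMIs held 46.8% of the class in cKO YFP+ and 26.0% in control YFP+ cells. Median UMIs per cell in it were 29062 and 30082 in cKO YFP+ and 22846 and 17855 in control YFP+ libraries, and in the other cluster 8249 and 8835 against 6179 and 4449. Of the GCB markers 7 counted as detected in the cluster with more UMIs and 3 in the other, against 8 in each GCB-like cluster. The summed level of 6 B cell markers in the class was 3177 and 2983 CPM in cKO YFP+ and 4220 and 4479 CPM in control YFP+ libraries, that of the cycling markers 1088 and 808 against 1717 and 1298 CPM, that of the plasma cell markers 515 and 404 against 832 and 698 CPM and that of the myeloid markers 74.5 and 70.6 against 94.6 and 130.4 CPM, and their part in the results was not tested.

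The clusters were therefore fitted apart, a step chosen after seeing the data. In the higher-UMI cluster 17 of the 40 genes were higher in cKO and 1 was lower, against 24.3% of all genes called, 11.5% higher and 12.9% lower. Eif4ebp1 was at 100.1 and 92.6 CPM in cKO YFP+ and at 21.3 and 20.027 CPM in control YFP+ cells of this cluster (log2 fold change 2.3, adjusted p = 3.75e-05). Eif5 was at 527 and 648 CPM against 192 and 213 CPM (1.62, adjusted p = 0.000221), and Eif6 at 195 and 205 CPM against 81.2 and 75.1 CPM (1.44, adjusted p = 0.000249). The cKO values of all of them lay far above the control values, in sums of 91 and 77 control cells. Eif2s2 (1.17), Eif1b (1.18), Eif3g (1.04) and Eif3j1 (0.99) were also higher, and so were Eif1, Eif1ax, Eif2b3, Eif2s1, Eif3b, Eif3i, Eif4a1, Eif4a2, Eif4g2 and Eif5a, by 0.54 to 0.93. Eif2ak3 had a log2 fold change of −1.73 (adjusted p = 0.00454) and Eif3e one of −1.06 (adjusted p = 0.00121). At a finer clustering, pre-GCB-like cells with many UMIs were spread over clusters in unlike shares by genotype. A cluster with a median of 34889 UMIs held 540 and 585 cKO YFP+ and 4 and 11 control YFP+ cells. Another, led by histone genes, with a median of 18575 UMIs, held 135 and 198 against 98 and 69. The part of this in the values of the higher-UMI cluster was not tested.

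In the lower-UMI cluster 0 of the 40 genes were called by edgeR, against 2.03% of all genes, and 1 had an unadjusted p under 0.05, against 11.6% of all genes. DESeq2 was not run on the clusters. The median log2 fold change of the 40 genes was −0.09 with 15 above 0 in this cluster, against −0.0053 and 49.5% above 0 over all genes. In the higher-UMI cluster it was 0.49 with 33 above 0, against 0.03 and 51.8% over all genes. Eif4ebp1 was at 26.5 and 30.6 CPM in cKO YFP+ and at 18.3 and 24.1 CPM in control YFP+ cells (log2 fold change 0.55, adjusted p = 0.535). Eif2ak3 was at 68.7 and 38.3 CPM against 175 and 94.1 CPM (−1.22, adjusted p = 0.104). The Eif2ak3 groups did not overlap in this cluster, and Eif6 and Eif2s2 had fold changes of 0.27 and 0.02. With the replicate block 5 genes were called in this cluster, 3 higher and 2 lower, against 14.7% of all genes (7.39% higher, 7.34% lower). They included Eif2ak3 (−1.22, adjusted p = 4.61e-15), Eif1b (0.63, adjusted p = 0.000408), Eif5 (0.51, adjusted p = 0.00231) and Eif2b2 (0.61, adjusted p = 0.0391). The fifth, Eif5b, was lower in this cluster (−0.41, adjusted p = 0.0179) and higher in the higher-UMI cluster (0.40, adjusted p = 0.0112) with the block, so its calls went in opposite directions. In the higher-UMI cluster the block gave 22 calls, against 34.7% of all genes (17.7% higher, 16.9% lower). Of the genes that only the blocked fit of the whole class called higher, Eif4a1 (−0.34), Eif3j1 (−0.29), Eif2s1 (−0.20), Eif3g (−0.12), Eif3b (−0.09), Eif1ax (−0.05) and Eif5a (−0.03) had a fold change below 0 in the lower-UMI cluster, each without a call, and the other genes were above 0. The difference between clusters was not tested.

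**Figure D3:**
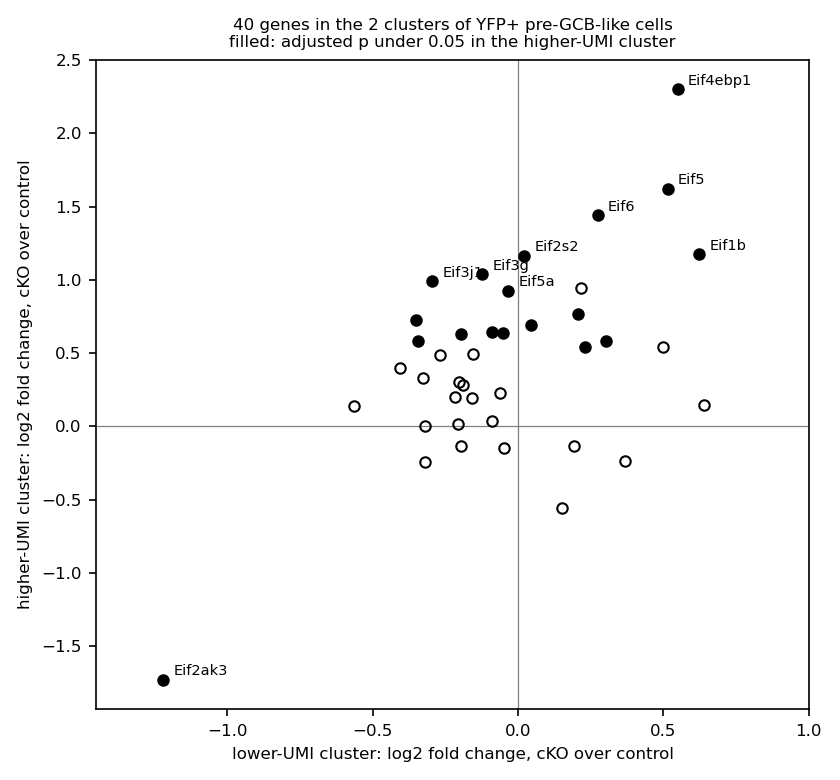
Log2 fold change of cKO over control YFP+ cells for each of the 40 genes in the lower-UMI cluster (horizontal axis) and the higher-UMI cluster (vertical axis) of pre-GCB-like cells, filled where the adjusted p in the higher-UMI cluster was under 0.05. Eif2ak3 lies at the lower left, at −1.22 and −1.73, and Eif4ebp1 at the top, at 0.55 and 2.3.

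In YFP+ naive B-like cells, which carry the reporter but are named from markers of resting B cells, 0 of the 40 genes were called by edgeR, against 0.66% of all genes. An unadjusted p under 0.05 was seen for 2 genes (10.1% of all genes) and DESeq2 called 1, Eif2ak3 (2.43% of all genes). Eif2ak3 was at 140 and 67.7 CPM in cKO and at 342 and 229.6 CPM in control, a difference in the same direction in both batches and without overlap (log2 fold change −1.33, SE 0.364, adjusted p = 0.193). Eif2b2, the β subunit of eIF2B, was at 27.5 and 44.5 CPM in cKO and at 16.8 and 25.2 CPM in control (0.94, adjusted p = 0.381). Eif6 was at 48.4 and 56.5 CPM against 40.3 and 45.3 CPM (0.45, adjusted p = 0.664). For both Eif2b2 and Eif6 the lower cKO value still lay above the higher control value. Genes named for a small p tend to be without overlap, so this, here and below, is description and not separate support.

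With the replicate block 5 genes were higher and 1 lower in these cells, against 14.8% of all genes called, 7.92% higher and 6.92% lower. The higher genes were Eif2b2, Eif3i, Eif6, Eif1ax and Eif3g, and Eif2ak3 was lower (−1.37, adjusted p = 0.000771). Eif3e was at 292 and 365 CPM in cKO and at 208 and 262 CPM in control (0.64, adjusted p = 0.571, with the block 0.00517), higher in cKO than in control, unlike in pre-GCB-like cells. Of the 33 related genes 0 were called, and with the block 13 were higher and 1 lower.

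Different clusters held the naive B-like class in the genotypes. In cKO YFP+ cells 61.5% of the class lay in one cluster and 35.4% in another, and in control YFP+ cells 91.6% lay in the third, which held 1.26% of the cKO cells. The first held 0.287% of the control YFP+ cells. Its score on the naive B markers was 0.733, against 1.11 for the second and 1.18 for the third. The genotypes were thus compared in cells of unlike state within this name. Xist was among the 10 leading genes of the second cluster. The sample titles do not give the sex of the mice, and its part in the genotype comparisons was not tested. Median UMIs per naive B-like cell were 5261 and 6033 in cKO YFP+ and 3987 and 2793 in control YFP+ libraries. The 6 B cell markers summed to 7421 and 7615 CPM in cKO and 8064 and 7950 CPM in control, the plasma cell markers to 570.4 and 577 against 590.3 and 625 CPM and the myeloid markers to 96.6 and 83.1 against 122.5 and 178 CPM, and the part of these differences in the results was not tested.

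Whether the genotype difference itself differed between pre-GCB-like and naive B-like cells of the same YFP+ libraries was tested with the library as a term, also a step added after seeing the data. It differed for 9 of 40 genes, against 14.2% of the 13658 genes tested. It was more positive in pre-GCB-like cells by 2.06 (SE 0.193) on the log2 scale for Eif4ebp1, by 0.99 for Eif5, by 0.79 for Eif1b, by 0.78 for Eif6, by 0.59 for Eif2s2 and by 0.48 for Eif3j1. It was more negative for Eif2ak1 (−0.62), Eif2b2 (−0.54) and Eif4b (−0.50). In naive B-like cells Eif4ebp1 stood at 17.6 and 17.6 CPM in cKO and 17.9 and 22.9 CPM in control. Eif2ak3 was not among the 9.

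**Figure D4:**
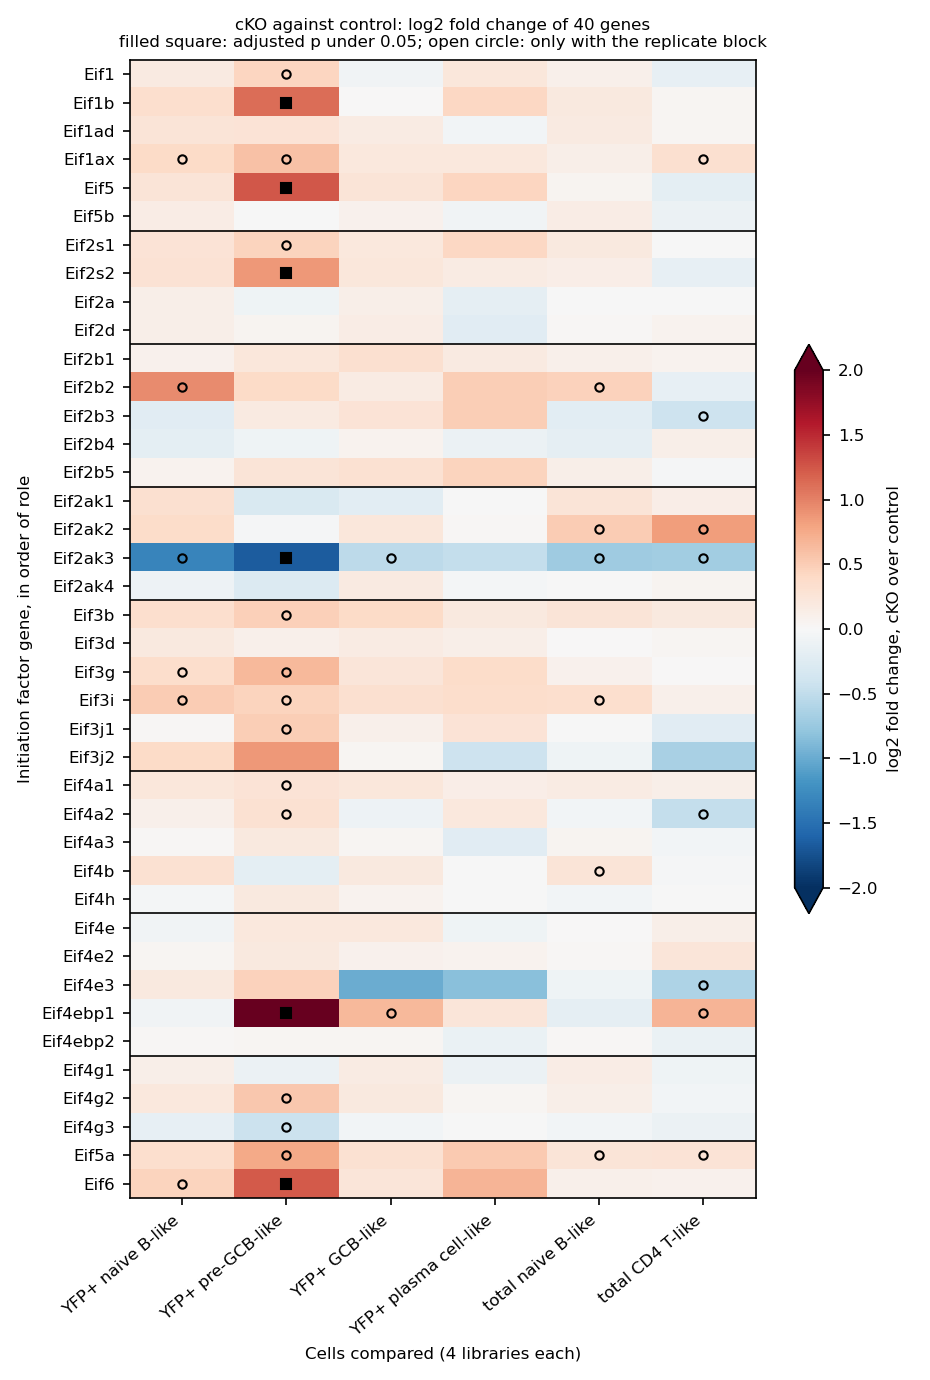
Log2 fold change of cKO over control for the 40 genes (rows, grouped by role) in 6 comparisons (columns) of 4 libraries each, red higher and blue lower in cKO, with a filled square for an adjusted p under 0.05 and an open circle where only the fit with the replicate block gave one. The filled squares lie in the pre-GCB-like column alone, and the Eif2ak3 row is blue in all 6 columns, from −1.66 to −0.47.

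In YFP+ GCB-like cells 0 of the 40 genes were called by edgeR and 0 by DESeq2, against 1.17% and 2.03% of all genes, and 1 had an unadjusted p under 0.05 by edgeR (8.8% of all genes). Eif4ebp1 was at 39.8 and 33.5 CPM in cKO and at 19.4 and 28.0 CPM in control, again without overlap (log2 fold change 0.65, SE 0.26, adjusted p = 0.471). Eif4e3 was at 3.86 and 1.22 CPM against 4.41 and 6.39 CPM (−0.99, adjusted p = 0.645), on 26 and 5 UMIs in cKO. Eif2ak3 was at 123 and 87.9 CPM against 193 and 121 CPM (−0.52, adjusted p = 0.649), with the cKO value of batch 1 above the control value of batch 2. With the replicate block Eif4ebp1 was higher (0.70, adjusted p = 0.000283) and Eif2ak3 lower (−0.52, adjusted p = 0.0231), against 9.02% of all genes (3.55% higher, 5.47% lower). Eif3e was at 267 and 304 CPM in cKO and 265 and 298 CPM in control (0.06, adjusted p = 0.998). The B cell markers summed to 3879 and 4188.5 CPM in cKO and 5131 and 5165 CPM in control GCB-like cells, the myeloid markers to 92.3 and 97.0 against 107 and 180.5 CPM, and the median UMIs per cell were 15978 and 17803 against 12893.5 and 12108.5. At the finer clustering (resolution 1.5) one GCB-like cluster held 99 and 64 cKO YFP+ cells and 5 and 11 control YFP+ cells, and another 35 and 19 against 812 and 1492. The part of these differences in the calls was not tested.

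In YFP+ plasma cell-like cells, which secrete antibody, 0 of the 40 genes were called by edgeR or by DESeq2, against 1.11% and 1.29% of all genes, and 2 had an unadjusted p under 0.05 by edgeR (9.04% of all genes). Eif6 was at 85.3 and 55.4 CPM in cKO and 37.8 and 50.3 CPM in control (0.68, adjusted p = 0.466). Eif4e3 was at 6.95 and 9.37 CPM against 11.6 and 18.0 CPM (−0.83, adjusted p = 0.486). Eif2b2 was at 23.6 and 22.6 CPM against 15.5 and 17.7 CPM (0.50, adjusted p = 0.674). The groups of these genes did not overlap, but the cKO sums rest on 114 and 102 cells against 906 and 1051 in control. One of the 2 clusters of the class held 18.1% of it in cKO and 31.3% in control YFP+ cells. Immunoglobulin genes took 30% and 32.3% of the UMIs of the class in cKO and 38.1% and 34.1% in control YFP+ libraries. The part of this in the CPM values was not tested. The cycling markers summed to 673 and 456 CPM in cKO and 1079.9 and 1011 CPM in control, the B cell markers to 1948 and 1608 against 1498 and 1427 CPM and the myeloid markers to 300.4 and 296 against 263 and 286.5 CPM, and their part in the values was not tested. The replicate block also called 0 of the 40 genes, against 3.53% of all genes, and 10 had an unadjusted p under 0.05, against 14.9% of all genes. Eif3e was at 107 and 117 CPM in cKO and 107 and 136 CPM in control (−0.09, adjusted p = 1.0).

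Over all YFP+ B-lineage cells summed, 0 of the 40 genes were called by edgeR, against 7.59% of all genes, while DESeq2 called 2 (11.0% of all genes) and 3 had an unadjusted p under 0.05 (20.2% of all genes). Eif4ebp1 was at 42.0 and 40.7 CPM in cKO and 19.7 and 23.7 CPM in control (0.90, SE 0.247, adjusted p = 0.0774). Eif2ak3 was at 104.5 and 54.8 CPM against 213 and 126 CPM (−1.11, adjusted p = 0.117). Eif2b3, the γ subunit of eIF2B, was at 34.4 and 33.8 CPM against 25.9 and 21.2 CPM (0.52, adjusted p = 0.216). All of them were without overlap between genotypes, and with the replicate block they were called together with Eif6 and Eif5, against 19.3% of all genes (8.25% higher, 11.0% lower). Eif3e was at 234 and 279.9 CPM in cKO and 225 and 267 CPM in control (0.04, adjusted p = 0.979). This sum mixes classes in unlike shares, and immunoglobulin genes took 2.13% and 2.09% of its UMIs in cKO and 9.42% and 7.95% in control, which was not tested for its part in the values.

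In naive B-like cells of total splenocytes, most of which Cre need not have marked, 0 of the 40 genes were called by edgeR or DESeq2, against 0.141% and 1.59% of all genes, and 1 had an unadjusted p under 0.05 by edgeR (6.72% of all genes). Eif2ak2 was at 31.1 and 33.9 CPM in cKO and at 23.2 and 25.6 CPM in control, without overlap (0.52, SE 0.196, adjusted p = 0.638). Eif2ak3 was at 245 and 130.3 CPM against 395 and 254 CPM, lower in cKO in each batch and without overlap (−0.70, SE 0.347, adjusted p = 0.857). Eif2b2 was at 22.2 and 32.6 CPM against 20.5 and 22.6 CPM, which overlap (0.46, adjusted p = 0.946). With the replicate block 6 genes were called, 5 higher and 1 lower, against 16.8% of all genes (8.61% higher, 8.17% lower). Eif2ak3 fell (−0.73, adjusted p = 0.000204) and Eif2ak2, Eif2b2, Eif3i, Eif4b and Eif5a were higher. Here too the class lay in different clusters by genotype, one of which held 61.1% of it in cKO and 1.38% in control, and another 97.4% in control and 7.03% in cKO, and the part of this was not tested. Eif3e was at 228 and 292 CPM in cKO and 198 and 243 CPM in control (0.34, adjusted p = 1.0, with the block 0.0125).

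The naive B-like cells of both sorts were also put in a single fit to ask whether the genotype difference depended on the sort. Of the 40 genes 0 were called by edgeR and 0 by DESeq2, and 0 had an unadjusted p under 0.05 by edgeR, against 1.51% of all genes. Over all genes edgeR called 0.0% and DESeq2 0.0379%. The genes with the smallest p were Eif6 (0.34, SE 0.294), Eif2ak3 (−0.62, SE 0.574) and Eif4e3 (0.29, SE 0.293), each with an adjusted p of 1.0. With genotype and batch number as the replicate block Eif2ak3 was called (−0.65, SE 0.0767, adjusted p = 0.000191), that is, it was lower in cKO by more in YFP+ than in total cells, against 2.26% of all genes (0.909% higher, 1.36% lower). In cKO the class differed in make-up between the sorts as well, with 61.5% of it in YFP+ and 31.1% in total libraries in one cluster and 35.4% and 61.1% in another, and the part of this was not tested. For Eif3e the term was 0.29 (adjusted p = 1.0, or 0.0426 in the blocked fit).

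In CD4 T-like cells of total splenocytes, which do not transcribe immunoglobulin γ1, 0 of the 40 genes were called by edgeR or DESeq2, against 2.57% and 5.64% of all genes, and 2 had an unadjusted p under 0.05 by edgeR (15.4% of all genes). Eif2ak2 was at 49.4 and 54.8 CPM in cKO and at 24.9 and 29.3 CPM in control, without overlap (0.84, SE 0.214, adjusted p = 0.105). Eif4e3 was at 17.0 and 14.6 CPM against 21.4 and 23.5 CPM (−0.61, adjusted p = 0.214), and Eif4ebp1 at 11.9 and 17.4 CPM against 7.12 and 10.1 CPM (0.67, adjusted p = 0.357). With the replicate block 4 genes were higher (Eif2ak2, Eif4ebp1, Eif1ax and Eif5a) and 4 lower (Eif2ak3, Eif4a2, Eif4e3 and Eif2b3), against 25.0% of all genes (13.5% higher, 11.5% lower). Eif2ak3 was at 47.1 and 27.3 CPM in cKO and 69.4 and 43.1 CPM in control (with the block −0.71, adjusted p = 0.00146), lower in cKO in each batch. Eif3e was at 259.6 and 301 CPM against 293 and 350.4 CPM (−0.30, adjusted p = 0.706, and 0.0273 in the blocked fit). The class was made up of unlike clusters in the genotypes, one of which held 18.6% of it in cKO and 66.6% in control, while 2 others held 28.2% and 20.9% in cKO and 2.01% and 2.86% in control, and a further one held 12.4% in cKO and had no cells in control. The cycling markers summed to 392 and 524 CPM in cKO and 194 and 223 CPM in control, and the plasma cell markers to 92.1 and 142.5 against 63.1 and 74.3 CPM. All 6 B cell markers had counts in the class, summing to 441 and 396 CPM in cKO and 182 and 245 CPM in control, and one of its clusters was led by MHC class II genes, which goes against its name, while a small one was led by Klrb1c and had Cd79a among its 10 leading genes. Without these 2 clusters, a step added after seeing the data, the B cell markers summed to 139 and 128 CPM in cKO and 98.1 and 154 CPM in control. The fit then called 0 of the 40 genes, against 2.53% of all genes, and with the replicate block 7 (4 higher, 3 lower), against 20.8% of all genes (11.8% higher, 8.94% lower). Eif2ak2 (0.85, adjusted p = 0.00399) and Eif2ak3 (−0.80, adjusted p = 0.00492) were among these 7. The part of the other differences in make-up was not tested.

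**Figure D5:**
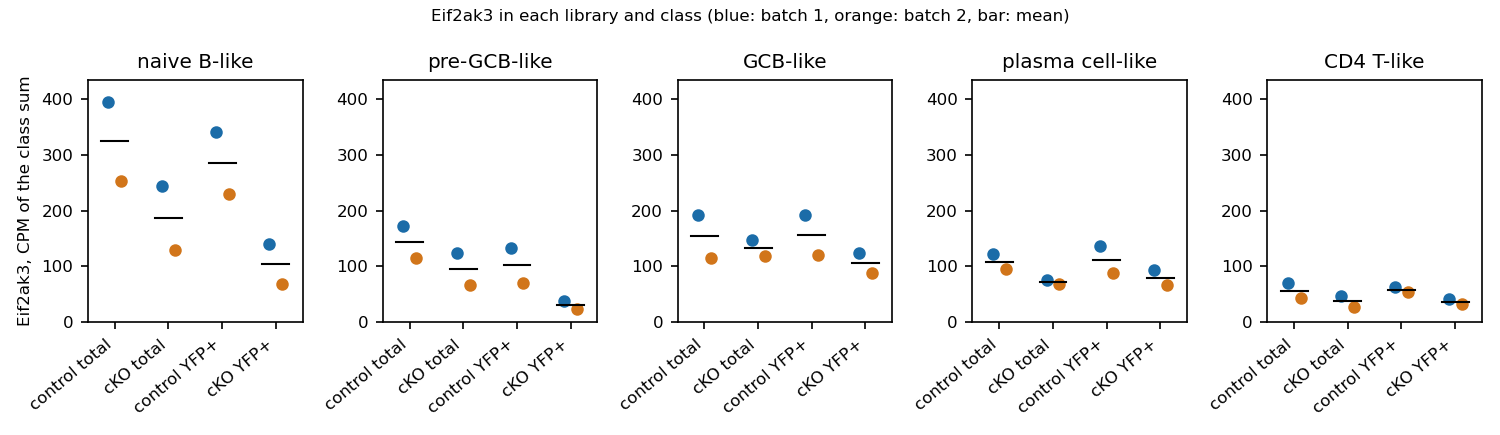
Level of Eif2ak3 in CPM (vertical axis, from 0, shared) in each library of the 4 groups in 5 classes, with batch 1 in blue, batch 2 in orange and the mean as a bar. Within each batch and sort the cKO library lies below the control library in all panels except for the total GCB-like cells of batch 2, at 118 against 115 CPM. The YFP+ CD4 T-like sums of batch 2 held only 23 cKO and 35 control cells, so their levels rest on few UMIs.

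YFP+ cells were compared with all B-lineage cells of the total libraries within each genotype, since YFP+ cells are those in which Cre has been active. The sums hold classes in unlike shares: in control the cycling markers summed to 1294 and 1385 CPM in YFP+ and 249 and 176 CPM in total cells, the plasma cell markers to 7795 and 7103 against 1440.5 and 1444 CPM and the B cell markers to 5159.7 and 4956 against 8138 and 8099 CPM. In cKO the cycling markers summed to 723 and 479 against 433 and 384 CPM, the plasma cell markers to 1528 and 1356 against 1273 and 2782.5 CPM and the B cell markers to 5345 and 5539.6 against 7324 and 7144 CPM. The part of this in the values was not tested. In control mice 0 of the 40 genes were called by edgeR, against 8.47% of all genes, while DESeq2 called 1 (13.3% of all genes) and 2 had an unadjusted p under 0.05 (24.5% of all genes). Eif1ax, which encodes eIF1A, was at 93.5 and 124 CPM in YFP+ and 54.7 and 66.8 CPM in total cells (1.05, SE 0.323, adjusted p = 0.0996). Eif2s1 was at 107 and 139 CPM against 77.6 and 90.1 CPM (0.76, adjusted p = 0.198), and Eif5a at 429 and 691 CPM against 273 and 409.9 CPM (0.93, adjusted p = 0.236). For each of these genes the YFP+ library was above the total library of its batch, and 33 of the 40 genes had a fold change above 0, with a median of 0.39 against −0.02 over all genes. Without control YFP+ replicate 2 or control total replicate 1 the median was 0.16 or 0.26, and without control YFP+ replicate 1 or control total replicate 2 it was 0.62 or 0.59. The labels do not say whether the YFP+ and the total library of a batch came from the same mice. With the batch number as the replicate block 24 genes were higher and 4 lower, against 46.0% of all genes called, 24.6% higher and 21.4% lower. Those that fell were Eif2ak3 (−0.51), Eif4e3 (−0.56), Eif2ak4 (−0.39) and Eif4a2 (−0.31). Eif3e had a value of 0.24 (adjusted p = 0.677), and of the 33 related genes 1, Eef2k, the kinase that inhibits elongation factor 2, was called, at −1.08 (adjusted p = 0.0416).

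In cKO mice the same comparison called 0 of the 40 genes by edgeR, against 0.0128% of all genes, while DESeq2 called 7 (5.91% of all genes) and 15 had an unadjusted p under 0.05 (16.7% of all genes). Eif4ebp1 was at 42.0 and 40.7 CPM in YFP+ and 22.4 and 23.6 CPM in total cells, without overlap (0.94, SE 0.165, adjusted p = 0.0951). Eif6 was at 95.8 and 105 CPM against 52.2 and 58.6 CPM (0.95, SE 0.208, adjusted p = 0.135), and Eif1ax at 117 and 120 CPM against 66.2 and 74.3 CPM (0.85, adjusted p = 0.146). In control mice the corresponding values of Eif4ebp1 were 19.7 and 23.7 CPM in YFP+ and 19.2 and 24.8 CPM in total cells, and those of Eif6 56.9 and 72.8 against 47.0 and 51.9 CPM. With the batch number as the replicate block 25 genes were higher and 4 lower, against 43.7% of all genes called, 23.4% higher and 20.3% lower. The kinases Eif2ak3 (−1.04), Eif2ak2 (−0.28) and Eif2ak4 (−0.21) and the scaffold Eif4g3 (−0.25) fell. By role, 5 of 6 genes of the scanning group, 5 of 6 eIF3 subunits outside the octamer and 4 of 5 eIF2B subunits were higher in that fit. No kinase was higher in it in either genotype. Eif3e had a value of 0.11 (adjusted p = 0.857).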

How the data were processed

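Single-cell 3′ RNA (SeekOne DD) was measured in 8 libraries. The authors deposited whole-number UMI counts per gene and cell, with no normalization. Per the labels the build is GRCm38 (mm10), and an aligner was not given in the sources used here. In their own work the authors used Seurat and Harmony and merged replicates.

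Cells were kept if they had over 200 UMIs, over 100 genes and no more than 10% of UMIs from mitochondria (83704 of 83967, in control total and cKO YFP+ marginally below the number of cells that the study gives). Counts were scaled to 10000 and log transformed. After 2000 variable genes without the 40 genes and the 33 related genes, scaling within batch, 30 components and 20 neighbours, Leiden clusters at resolution 1 were named from markers (Python 3.11.15, igraph 0.11.9). The 2 naming rules, on leading genes and on cycling B cells, were set after seeing the clusters. Doublets were kept in the main values.

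Counts were summed per library and class of at least 20 cells and tested with edgeR 4.0.16 (R 4.3.3, quasi-likelihood F test, robust, TMM, filterByExpr, Benjamini-Hochberg over all genes, threshold 0.05). Fold changes are edgeR's log2 estimates and SEs are derived from the F statistic. All 40 genes passed the low-count filter in each comparison (39 in some of the alternatives). In each main fit the genes with an adjusted p under 0.05, or otherwise the 3 with the smallest p, are named with values. Genes named from other fits were chosen after their values were seen. A lack of overlap between groups for genes named by their p is description and not separate support. The genes and lists were chosen with earlier results of these data known. The test was tried on simulated counts. The alternatives were DESeq2 1.42.0, RLE scaling, no low-count filter, each library left out, stricter cells, no doublets, resolution 1.5 and all 8 libraries in 1 fit. Chosen after seeing the data were the fits of each pre-GCB-like cluster, of CD4 T-like cells without 2 clusters with B cell or MHC class II genes among their 10 leading genes, and of the class difference.

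The batch numbers in the labels pair the libraries: across genes the deviations of same-numbered libraries from their group means correlated at 0.388 to 0.895. The fit with this replicate block leaves 1 residual degree of freedom per gene (2 for the interaction, with 8 libraries) before edgeR shares information across genes. The fit of the class difference also leaves 2. Very small p-values of these fits therefore rest mostly on the spread shared across genes and little on the pools of each gene. Exons of 9 of the 40 genes overlap another gene on the same strand and those of 13 one on the other strand, and their counts could be shared. Promoters are from RefSeq.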

Additional observations from a re-analysis of the deposited data

Results flagged for a closer look

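A set of 9 genes was looked at again because the genotype difference of cKO over control differed between pre-GCB-like and naive B-like cells of the YFP+ libraries, by a test of the difference itself (edgeR, library as a term, Benjamini-Hochberg over 13658 genes, of which 14.2% were called). The difference, in log2 units, was 2.06 for Eif4ebp1 (SE 0.193, adjusted p = 3.9e-18), 0.99 for Eif5 (SE 0.167, adjusted p = 9.85e-07), 0.79 for Eif1b (SE 0.161, adjusted p = 6.43e-05) and 0.78 for Eif6 (SE 0.163, adjusted p = 0.000103). It was 0.59 for Eif2s2 (adjusted p = 0.00568) and 0.48 for Eif3j1 (adjusted p = 0.0222). It was −0.62 for Eif2ak1 (adjusted p = 0.00462), −0.50 for Eif4b (adjusted p = 0.0162) and −0.54 for Eif2b2 (adjusted p = 0.0454). Eif4b was at 120.5 and 111 CPM in cKO and 159 and 126 CPM in control pre-GCB-like cells, and at 111.5 and 109 CPM in cKO and 98.0 and 99.0 CPM in control naive B-like cells. Eif2ak1 was at 29.1 and 32.5 CPM against 39.9 and 41.9 CPM in pre-GCB-like cells, and at 44.7 and 47.2 CPM against 39.3 and 42.3 CPM in naive B-like cells. These classes were made up of different clusters in the genotypes, and the part of that was not tested.

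Eif2ak3 was looked at again because its genotype difference was more negative in YFP+ than in total naive B-like cells, by −0.65 (SE 0.0767, edgeR with the replicate block, adjusted p = 0.000191). In cKO one cluster held 61.5% of this class in YFP+ and 31.1% in total libraries. Without the block the same term was −0.62 (SE 0.574, adjusted p = 1.0).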

How the results depend on the processing

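The count of genes called among the 40 was the result most dependent on the fit. With the replicate block it went from 0 to 6 in YFP+ naive B-like, from 6 to 18 in YFP+ pre-GCB-like, and from 0 to 2 in YFP+ GCB-like, 5 in YFP+ B-lineage, 6 in total naive B-like and 8 in total CD4 T-like cells (7 without 2 clusters with B cell or MHC class II genes among their leading genes). It went from 0 to 28 for YFP+ against total cells in control, 29 in cKO and 1 for the interaction of genotype and sort. It remained 0 in plasma cell-like cells. The block also moved the share of all genes called. In YFP+ cells this went from 0.66% to 14.8% in naive B-like, 10.6% to 29.5% in pre-GCB-like and 1.17% to 9.02% in GCB-like. It went from 1.11% to 3.53% in plasma cell-like and 7.59% to 19.3% in B-lineage. In total cells it went from 0.141% to 16.8% in naive B-like and 2.57% to 25.0% in CD4 T-like. For YFP+ against total it went from 8.47% to 46.0% in control and 0.0128% to 43.7% in cKO. DESeq2 gave 1 in YFP+ naive B-like cells (2.43% of all genes) and 2 in YFP+ B-lineage cells (11.0%). For YFP+ against total cells it gave 1 in control (13.3%) and 7 in cKO (5.91%). Without the low-count filter the count was 2 in YFP+ naive B-like cells (596 of all 21105 genes). It also moved from 0 in total CD4 T-like cells and for YFP+ against total in cKO. In pre-GCB-like cells the higher-UMI cluster alone gave 18, against 24.3% of all genes, and 22 with the block, against 34.7%. The lower-UMI cluster alone gave 0, against 2.03% of all genes. RLE scaling, the stricter cell filter, removal of doublets, resolution 1.5 and the fit of all 8 libraries left each count within 1.5 times its value. With each library left out in turn, the counts for YFP+ naive B-like cells were 0 to 2 (2 without cKO YFP+ replicate 1 and without control YFP+ replicate 2), from 5 to 9 in pre-GCB-like and from 0 to 2 in GCB-like cells (1 and 2 without control YFP+ replicates 1 and 2). They ran from 0 to 3 in YFP+ B-lineage cells (1 and 3 without control YFP+ replicates 1 and 2), from 0 to 1 in CD4 T-like cells (1 without control total replicate 2), from 0 to 6 for YFP+ against total in control (6 without control YFP+ replicate 1) and from 0 to 7 in cKO (4 without cKO YFP+ replicate 1, 7 without cKO total replicate 2). They were 0 throughout in plasma cell-like and total naive B-like cells and for the interaction. The causes of these moves were not tested.

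The log2 fold change of Eif3e changed sign in some fits: −0.0037 in GCB-like cells without the low-count filter, −0.08 and −0.10 there without cKO YFP+ replicate 2 and control YFP+ replicate 1, 0.06 and 0.12 in plasma cell-like cells without cKO YFP+ replicate 1 and control YFP+ replicate 2, and −0.21 and −0.19 in YFP+ B-lineage cells without cKO YFP+ replicate 2 and control YFP+ replicate 1. For YFP+ against total in control it was −0.0049 without control YFP+ replicate 2, against 0.24 in the main fit. In cKO it was −0.12 and −0.09 without cKO YFP+ replicate 2 and cKO total replicate 1. The ranges of these fits reached 0.24 in GCB-like cells, −0.28 in plasma cell-like cells, 0.30 in YFP+ B-lineage cells, and 0.48 and 0.36 for YFP+ against total in control and cKO. The median fold change of the 40 genes for YFP+ against total in cKO, 0.34, was 0.13 without cKO YFP+ replicate 2, 0.16 without cKO total replicate 1, 0.50 without cKO YFP+ replicate 1 and 0.55 without cKO total replicate 2. In pre-GCB-like cells Eif2ak1 and Eif2ak2, below 0 in the class, were at 0.15 and 0.19 in the lower-UMI cluster, and Eif2ak4 was at 0.02 in the higher-UMI cluster, with no call. With 2 pools of mice per group the spread between pools limits what could be detected, and classes of about 100 cells in a library, such as cKO plasma cell-like cells, limit the precision further.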
